A study of Mus musculus with 8 samples.

Results

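The genes described here are those with which the liver makes cholesterol, moves it inside the cell, takes it up and exports it. They were taken from a list of 30 genes by their function, matched to the gene symbols of the array's probe sets, and 28 of them were measured, out of 19938 genes with a probe set of their own. All 28 lay on probe sets that name 1 gene and none on probe sets that name several. Acat2 and Soat2 were not analysed here. Idi1 and Fdft1 had 2 probe sets, and every gene was followed by its brightest one.

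The RKO livers, labelled "Rictor floxed", came from adult male mice in which Rictor is deleted in hepatocytes by Albumin-Cre acting on Rictor LoxP/LoxP alleles. The WT livers came from adult male mice labelled wild type, and the labels do not say whether these carried Cre or a floxed allele. All mice were fasted for 16 h and were then refed freely for 3 h, and each group held 4 mice with 1 Affymetrix Mouse Gene 1.0 ST array each. Rictor is a subunit of mTOR complex 2, a kinase complex that acts on Akt downstream of insulin. The labels place the deletion in hepatocytes, and the state of Rictor in the other cells of the liver was not examined.

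Hepatocytes build cholesterol from acetyl-CoA by way of mevalonate, farnesyl diphosphate, squalene and lanosterol. The transcription factor SREBP2 raises the enzymes of this route together when sterols in the endoplasmic reticulum are low, and the Insig proteins hold it back when sterols are high. Cholesterol also arrives through lipoprotein receptors, and it leaves through ABC transporters, to high density lipoprotein (HDL) or to bile.

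The values are log2 expression values made with RMA. Differences are RKO minus WT on the log2 scale, and SD is the spread over the 4 arrays of a group. The Rictor probe set read 9.15, 9.51, 9.68 and 9.47 on RKO arrays 1 to 4, and 9.47, 9.28, 9.23 and 9.64 on WT arrays 1 to 4. The groups overlapped in Rictor (difference 0.05, SE 0.13), and since which exons the probe set covers was not examined, it does not check the genotype. RKO 1 stood apart from its group: on the first principal component it lay at -0.421, the other RKO arrays between 0.358 and 0.520, and the WT arrays between -0.319 and -0.104. RKO 1 also correlated better with the WT arrays (mean r 0.991) than with its own group (mean r 0.988). WT 1, at -0.104, did not stand apart from WT 4, at -0.179, but the counts below move when it is left out. Results are therefore given with and without both arrays numbered 1. The 7 measured hepatocyte markers averaged 13.91 to 13.93 on RKO arrays and 13.85 to 13.93 on WT arrays, and 8 Kupffer cell markers averaged 9.17 to 10.15 on RKO arrays and 9.00 to 9.72 on WT arrays. The mean was higher on RKO arrays for 7 of 7 hepatocyte markers (median difference 0.036) and for 7 of 8 Kupffer cell markers (median difference 0.10, against 0.09 for the 28 genes described here). In the Kupffer, sinusoidal endothelial and stellate lists, 0 of 24 measured markers had an unadjusted p under 0.05. Of all genes, 3.82% were higher and 6.53% lower at that p. The mean was higher on RKO arrays for 5 of 8 endothelial (median difference 0.056) and 4 of 8 stellate markers (-0.0015). It was higher for 2 of 5 cholangiocyte (-0.046) and 1 of 4 blood markers (-0.23). The cholangiocyte and blood lists each had 1 marker under that p, lower on RKO arrays: Epcam and Cd79a. The part of other cell types in the results below was not tested.

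Cholesterol synthesis genes had mostly higher means in RKO livers, led by Hmgcs1, Dhcr7 and Hsd17b7, whereas genes of uptake and efflux showed no common direction. Of the 28 genes, 20 had a higher mean on RKO arrays (71.4%, against 43.1% of all genes), and the median difference was 0.09, against -0.02 over all genes. The share of all genes depends on scaling. With arrays centred on their medians, 21 of 28 had a higher mean, against 9729 of all 19938 genes. The median differences were then 0.10 and -0.0034. With quantile normalisation repeated, the counts were 21 of 28 and 9823 of 19938. The synthesis genes' deviations from their means over all arrays averaged 0.12, -0.09, 0.05 and 0.20 on RKO arrays 1 to 4. On WT arrays 1 to 4 they averaged 0.16, -0.14, -0.09 and -0.21, so the groups overlapped. The median difference of the synthesis genes was 0.105, beside an SD of 0.118 of the array medians within groups. Genes that vary together are not separate observations, so the counts of direction do not measure agreement between mice. In whole liver, fewer cells of a type and less RNA per cell cannot be told apart. In the linear model across all probe sets (limma, two-sided, Benjamini-Hochberg adjustment), 0 of the 28 passed an adjusted p of 0.05, as did 0 (0%) of all genes. Their smallest adjusted p was 0.222, for Hmgcs1. At an unadjusted p under 0.05, 3 of 28 were higher on RKO arrays (10.7%, against 3.82% of all genes) and 0 were lower (against 6.53% of all genes). All 28 lay above the median level of the probe sets. Over the 11274 genes above it, fitted alone, 5.79% were higher and 8.99% lower at that p, with the same 3 and 0 members. The split of all genes moved with scaling: at equal weights 761 were higher and 1301 lower at that p, and 897 were higher and 799 lower when each array was centred on its median. The count of 3 members was the same after centring. The groups did not overlap in 1 of the 28, which was higher on RKO arrays (3.57%, against 1.81% of all genes), and in 0 that were lower (against 2.61%). Over the 11274 genes above the median level, these shares were 2.56% and 3.22%.

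**Figure D1:**
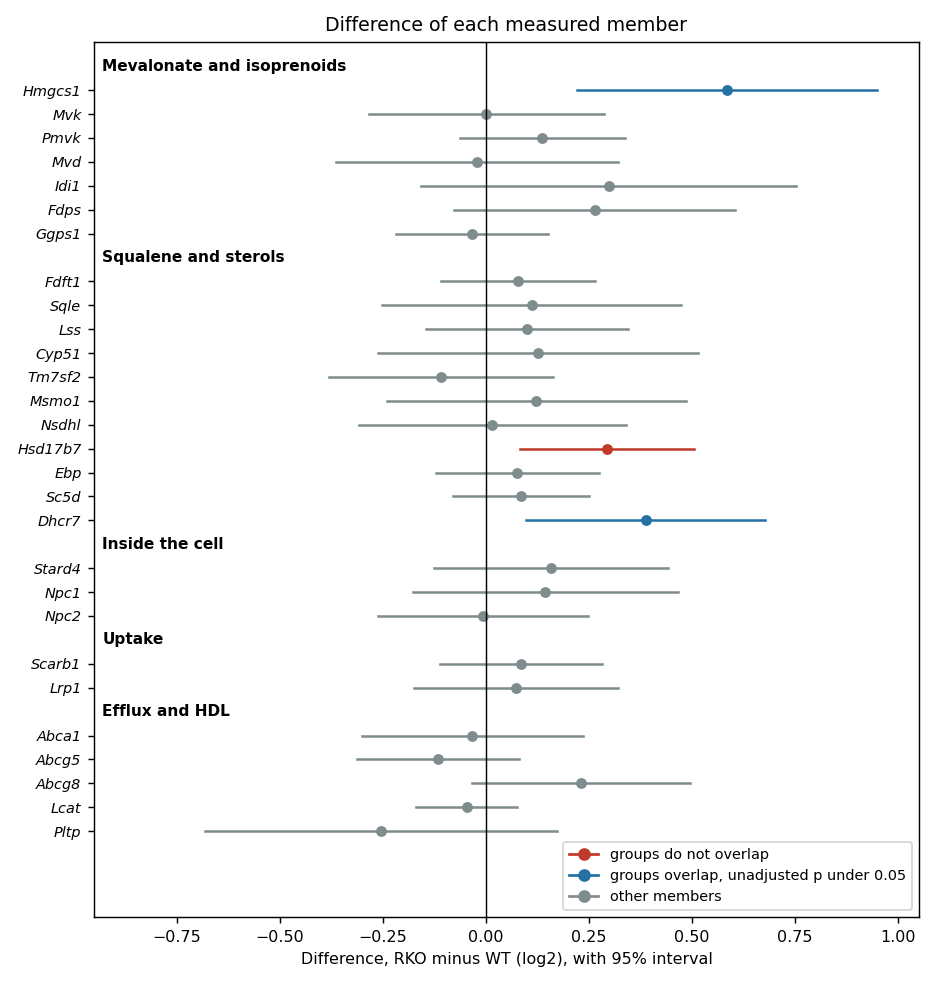
Difference of each of the 28 measured genes, RKO minus WT on the log2 scale, with its 95% interval from the limma fit (4 arrays a group), ordered by role. The intervals of Hmgcs1, Hsd17b7 and Dhcr7 lie above 0, and the other 25 hold 0.

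The first part of the route, from acetyl-CoA to farnesyl and geranylgeranyl diphosphate, had 5 of 7 measured genes with a higher mean in RKO livers and a median difference of 0.14. Hmgcs1 encodes the cytosolic HMG-CoA synthase, which makes the substrate of the rate-limiting reductase. It read 10.54, 10.68, 11.01 and 11.27 on RKO arrays 1 to 4, and 10.66, 10.04, 10.16 and 10.29 on WT arrays 1 to 4. RKO arrays 2 to 4 lay above all 4 WT arrays, and the groups overlapped because RKO 1 lay below WT 1. The means were 10.88 ± 0.33 in RKO and 10.29 ± 0.27 in WT livers (SD, n = 4 each). The difference of 0.59 (SE 0.17) is 1.50-fold, with a 95% interval from 1.17-fold to 1.93-fold, and it did not pass (limma adjusted p = 0.222).

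Idi1, the isopentenyl diphosphate isomerase, varied most within the groups of these 7 genes. It read 10.92, 10.62, 10.88 and 11.44 on RKO arrays 1 to 4, and 11.27, 10.60, 10.25 and 10.54 on WT arrays 1 to 4. WT 1 lay above 3 of the RKO arrays, and the groups overlapped widely. The difference was 0.30 (SE 0.21), and 0.33 (SE 0.22) by its other probe set, with neither passing (limma adjusted p = 0.644 and 0.612).

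Fdps, which makes farnesyl diphosphate, averaged 10.44 ± 0.18 in RKO and 10.17 ± 0.34 in WT livers (SD, n = 4 each), a difference of 0.26 (SE 0.16). Pmvk (phosphomevalonate kinase) differed by 0.14 (SE 0.09). Mvk (mevalonate kinase) and Mvd (mevalonate diphosphate decarboxylase) gave 0.0010 (SE 0.13) and -0.02 (SE 0.16). Ggps1, whose product is used for protein prenylation and not for sterols, gave -0.03 (SE 0.09). Whether these genes differ from Hmgcs1 in their response was not tested.

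The second part, from squalene to cholesterol, had 10 of 11 genes with a higher mean in RKO livers and a median difference of 0.10. Hsd17b7, a ketosteroid reductase that takes part in removing the extra methyl groups of lanosterol, was the 1 gene of the 28 whose groups did not overlap. It read 11.20, 11.22, 11.45 and 11.47 on RKO arrays 1 to 4, and 11.14, 10.88, 11.14 and 11.01 on WT arrays 1 to 4. The gap between the lowest RKO array, RKO 1, and the highest WT array, WT 1, was 0.06. The means were 11.34 ± 0.15 in RKO and 11.04 ± 0.12 in WT livers (SD, n = 4 each), and the difference of 0.29 (SE 0.10) is 1.23-fold (limma adjusted p = 0.287).

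Dhcr7 encodes the reductase of the last step to cholesterol. It read 9.95, 10.13, 10.50 and 10.23 on RKO arrays 1 to 4, and 10.01, 9.53, 9.89 and 9.83 on WT arrays 1 to 4. Here too RKO arrays 2 to 4 lay above every WT array, and RKO 1 lay 0.06 below WT 1. The difference of 0.39 (SE 0.13) is 1.31-fold, with a 95% interval from 1.07-fold to 1.60-fold, and it did not pass (limma adjusted p = 0.305).

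**Figure D2:**
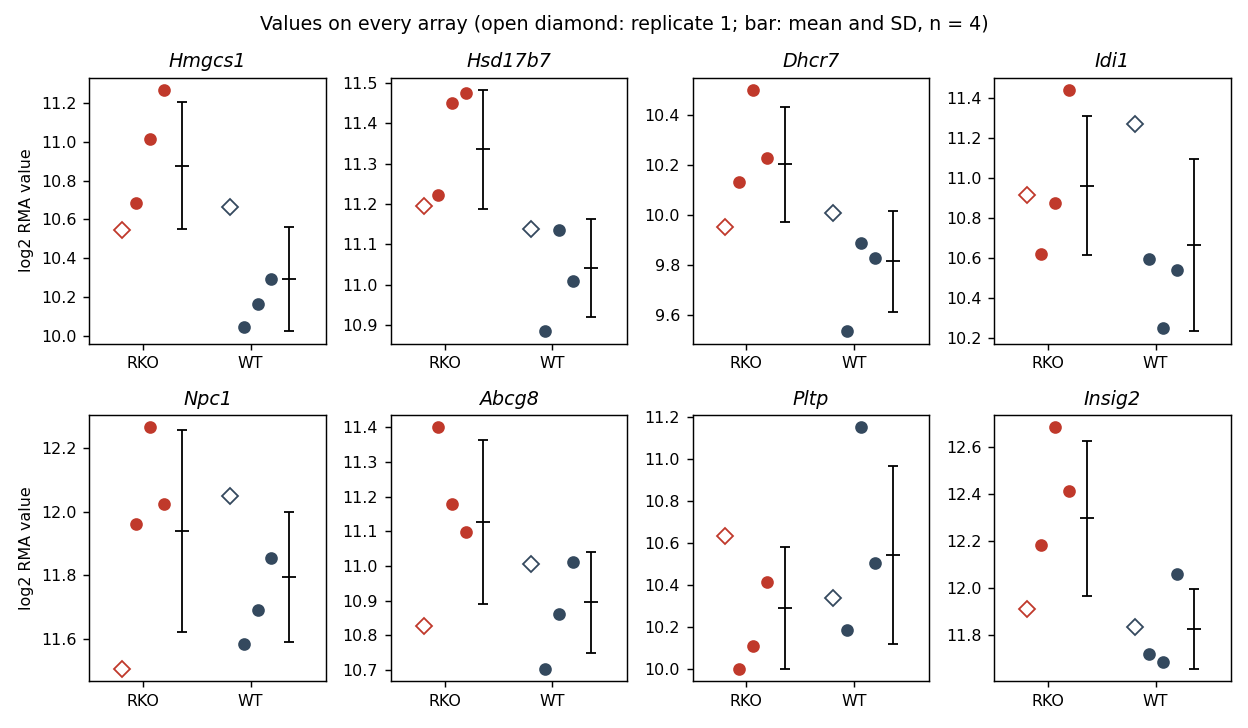
Log2 RMA values of 8 genes on every array, RKO left and WT right in each panel, with the mean and SD of 4 arrays as a bar; open diamonds are the arrays numbered 1. In Hmgcs1 and Dhcr7 RKO 1 lies below WT 1 while the other RKO arrays lie above all WT arrays, and in Pltp WT 3 lies alone at 11.15.

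The other enzymes of this part gave small differences beside their spread. Sqle (squalene epoxidase, a second control point of the route) averaged 9.91 ± 0.26 in RKO and 9.80 ± 0.33 in WT livers, a difference of 0.11 (SE 0.17). Cyp51 (lanosterol demethylase) averaged 9.91 ± 0.35 in RKO and 9.79 ± 0.28 in WT livers, a difference of 0.13 (SE 0.18). Msmo1 (methylsterol monooxygenase) averaged 11.33 ± 0.24 in RKO and 11.21 ± 0.35 in WT livers, a difference of 0.12 (SE 0.17). In these 3 genes WT 1 was the highest of all 8 arrays, so that the groups overlapped. Lss (lanosterol synthase) differed by 0.10 (SE 0.11), Sc5d (a sterol desaturase) by 0.09 (SE 0.08) and Ebp (a sterol isomerase) by 0.08 (SE 0.09). Nsdhl, a sterol dehydrogenase, gave 0.02 (SE 0.15). Tm7sf2, a sterol reductase, was the 1 gene of this part with a lower mean in RKO livers (-0.11, SE 0.13). Fdft1, squalene synthase, gave 0.08 (SE 0.09) by its brighter probe set and -0.06 (SE 0.11) by the other, so its direction is not settled.

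The promoters of Hmgcs1, Hsd17b7 and Dhcr7 are shown because these genes had the smallest p of the synthesis enzymes. Each window runs 5′ to 3′ on the gene's strand, from 250 bases before to 50 bases after the start (RefSeq, GRCm38.p6), and the capitals mark TCACNCCAC, an SREBP-type sterol element, and CCAAT, the box bound by NF-Y, on either strand. Hmgcs1 lies at chr13:119690101-119690400 (plus strand), Hsd17b7 at chr1:169969156-169969455 (minus strand) and Dhcr7 at chr7:143829964-143830263 (plus strand).
Hmgcs1: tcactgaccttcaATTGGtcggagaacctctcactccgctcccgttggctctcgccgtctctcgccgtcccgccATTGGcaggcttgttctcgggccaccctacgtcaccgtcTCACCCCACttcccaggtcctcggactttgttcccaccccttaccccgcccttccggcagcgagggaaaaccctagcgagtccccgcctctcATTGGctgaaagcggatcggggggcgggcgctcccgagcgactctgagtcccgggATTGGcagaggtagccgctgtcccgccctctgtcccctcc
Hsd17b7: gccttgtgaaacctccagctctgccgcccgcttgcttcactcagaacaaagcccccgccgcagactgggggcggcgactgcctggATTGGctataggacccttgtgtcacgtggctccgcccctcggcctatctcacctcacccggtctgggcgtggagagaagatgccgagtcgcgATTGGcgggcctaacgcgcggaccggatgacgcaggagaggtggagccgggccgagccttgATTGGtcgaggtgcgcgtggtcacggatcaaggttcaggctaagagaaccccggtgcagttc
Dhcr7: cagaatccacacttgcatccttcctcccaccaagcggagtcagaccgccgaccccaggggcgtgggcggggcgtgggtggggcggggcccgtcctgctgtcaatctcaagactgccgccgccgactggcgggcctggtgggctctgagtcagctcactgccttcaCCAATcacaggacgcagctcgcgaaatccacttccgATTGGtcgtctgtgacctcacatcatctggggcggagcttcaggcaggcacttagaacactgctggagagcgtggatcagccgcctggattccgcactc

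The Hmgcs1 window holds the sterol element once, as TCACCCCAC beginning 137 bases before the start, and CCAAT on the minus strand (ATTGG) 4 times. The Hsd17b7 window holds CCAAT 3 times and the Dhcr7 window 2 times, and neither holds TCACNCCAC. Promoters of 23 of the 30 listed genes were in the RefSeq table, 16 of them synthesis enzymes. TCACNCCAC was found in 1 of these 16 (6.25%), against 1.44% of all 27025 genes and 1.24% of all promoters in the table. CCAAT was found in 15 of the 16 (93.8%) and in 5 of the 7 handling genes (71.4%), against 41.1% of all genes and 37.4% of all promoters. The windows of Abcg5 and Abcg8, neighbours transcribed away from each other, overlap. The shares are a description of these letters and were not set against promoters of like base composition.

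Within the groups, a core of synthesis genes went up and down together from mouse to mouse. This was described with each gene's deviation from its group mean over the 8 arrays, set against the mean deviation of the other synthesis genes. The correlation was 0.966 for Sqle, 0.913 for both Fdps and Cyp51, 0.858 for Nsdhl, 0.853 for Msmo1 and 0.807 for Idi1, and it was above 0 in 17 of the 18 synthesis genes. The genes with the smallest p were not among the most closely tied: Hmgcs1 had 0.588, Hsd17b7 0.510 and Dhcr7 0.236. Tm7sf2 had -0.0703. For the other genes of the 28 and the regulators described below, it ranged from -0.570 (Abcg5) to 0.795 (Abcg1). Erg28 (0.750), Nceh1 (0.647) and Npc2 (0.631) also lay above Hmgcs1, whereas Lrp1 (-0.522) and Abca1 (-0.440) lay well below 0. A share over all genes is not given, so whether the tie is particular to synthesis genes was not tested. Over all 153 pairs of synthesis genes the median correlation was 0.357, and 124 pairs were above 0. These values rest on 8 arrays that share a normalisation, and WT 1 carries much of them. Its synthesis genes lay on average 0.23 above the WT mean, and it was the highest WT array in 12 of the 18. Among RKO arrays, RKO 4 was the highest in 10 of the 18 and lay on average 0.13 above the RKO mean, whereas RKO 2 lay 0.16 below it.

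**Figure D3:**
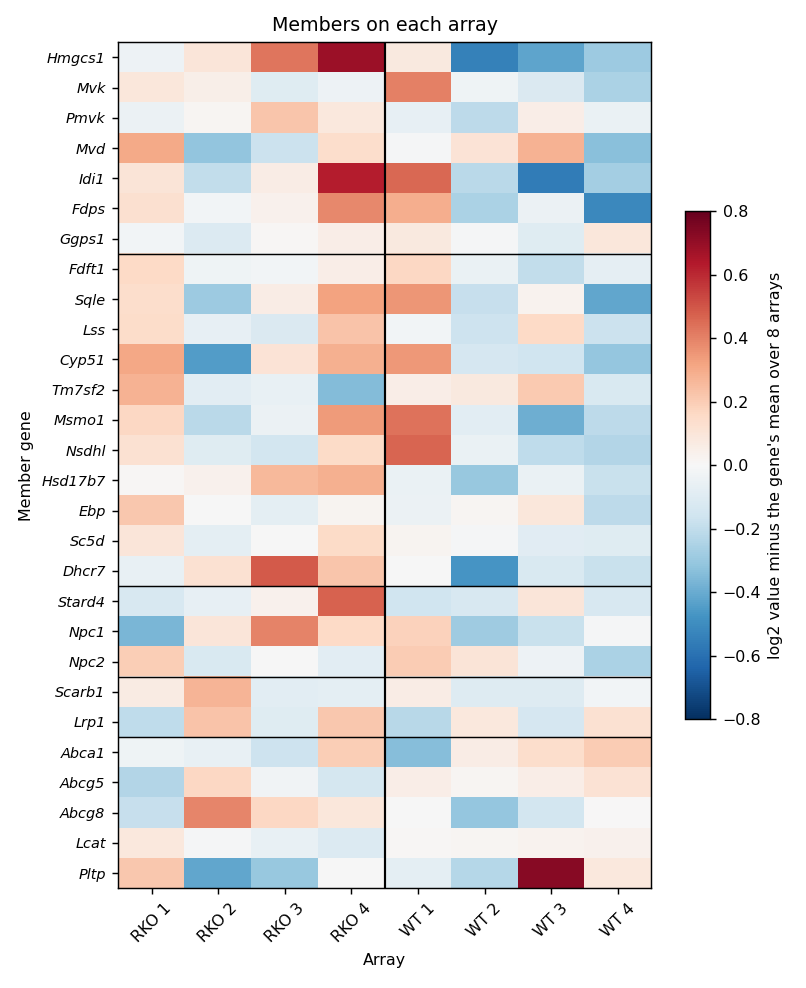
Log2 value of each of the 28 genes minus its mean over the 8 arrays (colour), with arrays in columns, RKO left and WT right, and genes in rows by role. WT 1 and RKO 4 are high in most synthesis genes such as Idi1, Fdps, Sqle and Msmo1, and RKO 2 is low in Sqle and Cyp51.

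Genes that move cholesterol inside the cell gave no difference at an unadjusted p under 0.05. Stard4, a cytosolic sterol carrier, read 9.77, 9.83, 9.94 and 10.37 on RKO arrays 1 to 4, and 9.74, 9.77, 10.00 and 9.77 on WT arrays 1 to 4. RKO 4 alone was above all WT arrays, and the difference was 0.16 (SE 0.13). Npc1, which exports cholesterol from lysosomes, read 11.50, 11.96, 12.27 and 12.03 on RKO arrays 1 to 4, and 12.05, 11.58, 11.69 and 11.855 on WT arrays 1 to 4. RKO 1 was the lowest of all 8 arrays and WT 1 the second highest, and the difference was 0.14 (SE 0.15). Npc2, the soluble partner of Npc1, averaged 8.91 ± 0.14 in RKO and 8.92 ± 0.20 in WT livers (SD, n = 4 each), a difference of -0.0073 (SE 0.12).

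Uptake receptors also overlapped between the groups. Scarb1, the hepatic receptor for HDL cholesterol esters, averaged 12.10 ± 0.17 in RKO and 12.01 ± 0.08 in WT livers, a difference of 0.09 with a 95% interval from -0.11 to 0.28. Lrp1, an endocytic receptor for lipoprotein remnants, averaged 12.34 ± 0.22 in RKO and 12.27 ± 0.17 in WT livers, a difference of 0.07 with a 95% interval from -0.17 to 0.32.

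Among the efflux and HDL genes 4 of 5 had a lower mean in RKO livers, and the median difference was -0.05. Abca1, which loads cholesterol onto apolipoprotein A-I, averaged 11.31 ± 0.15 in RKO and 11.35 ± 0.24 in WT livers, a difference of -0.03 with a 95% interval from -0.30 to 0.23. Abcg5 and Abcg8 encode both subunits of the transporter that passes sterols into bile. Abcg5 read 11.51, 11.91, 11.71 and 11.60 on RKO arrays 1 to 4, and 11.79, 11.75, 11.79 and 11.85 on WT arrays 1 to 4. Of the RKO arrays 3 lay below all WT arrays and RKO 2 above all of them, and the difference was -0.12 (SE 0.09). Abcg8 read 10.83, 11.40, 11.18 and 11.10 on RKO arrays 1 to 4, and 11.01, 10.70, 10.86 and 11.01 on WT arrays 1 to 4. RKO arrays 2 to 4 lay above all WT arrays, and the difference was 0.23 (SE 0.12; limma adjusted p = 0.513).

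Lcat, the enzyme that esterifies cholesterol in HDL, differed by -0.05 (SE 0.06), and its WT arrays all lay between 13.45 and 13.47. Pltp, the plasma phospholipid transfer protein that remodels HDL, had the lowest difference of the 28 genes. It read 10.63, 10.00, 10.11 and 10.41 on RKO arrays 1 to 4, and 10.34, 10.19, 11.15 and 10.50 on WT arrays 1 to 4. The difference of -0.25 (SE 0.20) became -0.05 without WT 3. Of the 10 genes of handling, uptake and efflux, 5 had a higher and 5 a lower mean in RKO livers, and all 10 intervals held 0.

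How many genes passed depended on which arrays were used and how they were weighted. When limma weighted the arrays by their fit to the group, RKO 1 had the lowest weight (0.471) and 3 of the 28 passed, all higher on RKO arrays: Hmgcs1 (0.78; limma adjusted p = 0.0195), Hsd17b7 (0.40; 0.0341) and Dhcr7 (0.55; 0.0384). This is 10.7%, against 1.27% of all genes that passed as higher and 3.38% in either direction. WT 2 had the highest weight (2.32), and WT 1 (0.821) lay near WT 3 (0.825). In all 3 genes WT 2 was the lowest WT array, so the weighted differences rest in part on this mouse. Without RKO 1, Hmgcs1 passed as higher (0.70; limma adjusted p = 0.0348), or 3.57% of the 28, against 1.06% of all genes as higher and 4.2% in either direction. Without WT 1, 0 of the 28 passed, against 0.331% of all genes as higher and 0.466% in either direction, and Hmgcs1 stood at 0.71 (limma adjusted p = 0.0613). Without both arrays 4 members passed as higher (14.3%, against 2.28% of all genes as higher and 7.24% in either direction): Hmgcs1 (0.82; limma adjusted p = 0.00315), Dhcr7 (0.54; 0.0205), Npc1 (0.37; 0.0369) and Hsd17b7 (0.37; 0.0384). RKO 1 was picked for lying toward the WT arrays, WT 1 was picked with its effect on the counts known, and array weights fall with distance from the own group, so these p-values are not a separate test. Over the 18 alternatives the adjusted p of Hmgcs1 ranged from 0.00315 to 0.605, of Dhcr7 from 0.0205 to 0.720, of Hsd17b7 from 0.0341 to 0.705 and of Npc1 from 0.0369 to 0.975. The groups did not overlap, with RKO higher, in 4 of the 28 without RKO 1 (14.3%, against 5.74% of all genes) and in 6 without WT 1 (21.4%, against 4.34%). The same was seen in 3 without WT 3 (against 3.83% of all genes) and in 8 without both arrays numbered 1 (28.6%, against 9.15%). All 6 without WT 1 were synthesis enzymes. WT 1 was the highest WT array in 12 of the 18 synthesis genes, so leaving it out favours separation there, and no conclusion is drawn from this. Lcat was lower on RKO arrays without overlap when RKO 1 or both arrays numbered 1 were left out, 1 of the 28 each time (3.57%), against 11.1% and 15.6% of all genes.

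**Figure D4:**
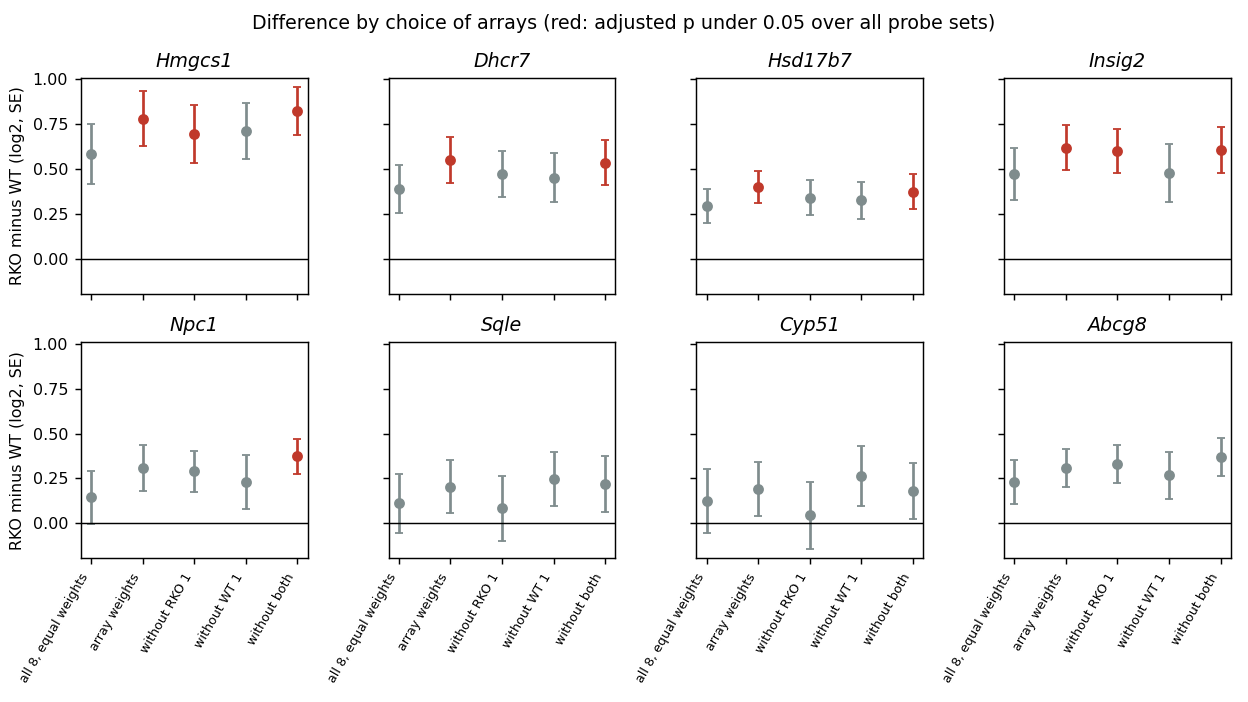
Difference of 8 genes, RKO minus WT on the log2 scale with its SE, in 5 fits: all 8 arrays at equal weights, with array weights, and without RKO 1, WT 1 or both; red points passed an adjusted p of 0.05. In these fits Hmgcs1 lies between 0.59 and 0.82 and Npc1 between 0.14 and 0.37. In fits not shown, Hmgcs1 fell to 0.46 without RKO 4 and Npc1 to 0.04 without RKO 3.

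Regulators and further genes of cholesterol handling were described from a list of 26, of which 18 were measured and 8 were not analysed here. The list was chosen with earlier results of these data known, so its shares are a description and not a test. Of the 18, 0 passed over all probe sets by limma, and the median difference was -0.03. At an unadjusted p under 0.05, 3 were higher on RKO arrays (16.7%, against 3.82% of all genes) and 1 was lower (5.56%, against 6.53%). The groups did not overlap in 2 that were higher (11.1%, against 1.81% of all genes) and in 1 that was lower (5.56%, against 2.61%). With arrays centred on their medians, 0 were higher without overlap (against 2.6% of all genes) and 1 was lower (against 1.14%). With quantile normalisation repeated, 1 was higher (against 2.44%) and 1 was lower (against 2.3%). Over the 11274 genes above the median level, which hold all 18, 5.79% were higher and 8.99% lower at an unadjusted p under 0.05. Without overlap these shares were 2.56% and 3.22%. Srebf2, which encodes SREBP2, read 9.82, 10.10, 10.04 and 10.10 on RKO arrays 1 to 4, and 9.86, 9.74, 9.92 and 9.75 on WT arrays 1 to 4. RKO arrays 2 to 4 lay above all WT arrays and RKO 1 did not, and the difference was 0.20 (SE 0.10; limma adjusted p = 0.484). Its escort Scap differed by 0.13 (SE 0.08).

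Insig2, an endoplasmic reticulum anchor of the SREBP and Scap complex, had the highest difference of the 18. It read 11.91, 12.18, 12.68 and 12.41 on RKO arrays 1 to 4, and 11.84, 11.72, 11.68 and 12.06 on WT arrays 1 to 4. Only RKO 1 lay below the highest WT array, and the difference was 0.47 (SE 0.15; limma adjusted p = 0.257). Weighted arrays gave 0.62 (limma adjusted p = 0.0239), and it also passed without RKO 1 (0.60; 0.0200) and without both arrays numbered 1 (0.61; 0.0121), and its adjusted p over the 18 alternatives reached 0.639. Insig1, the other Insig gene and itself a target of SREBP, had a lower mean in RKO livers, 11.68 ± 0.23 against 11.82 ± 0.08 in WT livers (difference -0.14, SE 0.11).

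Nr1h3, which encodes the sterol-sensing receptor LXR alpha, gave -0.03 (SE 0.08). Lipa encodes lysosomal acid lipase, which frees cholesterol from its esters. It read 12.41, 12.45, 12.67 and 12.44 on RKO arrays 1 to 4, and 12.39, 12.21, 12.23 and 12.35 on WT arrays 1 to 4. All RKO arrays lay above all WT arrays, RKO 1 closest to them with a gap of 0.02. The difference was 0.19 (SE 0.08; limma adjusted p = 0.388). Erlin2, a protein of the endoplasmic reticulum that takes part in sterol-regulated protein degradation, read 9.69, 9.69, 9.87 and 9.66 on RKO arrays 1 to 4, and 9.54, 9.42, 9.63 and 9.51 on WT arrays 1 to 4. Here too the RKO arrays all lay above the WT arrays, with a gap of 0.03 and a difference of 0.20 (SE 0.09; limma adjusted p = 0.440). With arrays centred on their medians, the groups overlapped in both Lipa and Erlin2. Stard5, a sterol-binding protein, read 12.24, 12.32, 12.31 and 12.24 on RKO arrays 1 to 4, and 12.56, 12.37, 12.51 and 12.37 on WT arrays 1 to 4. It was lower on all 4 RKO arrays than on any WT array, with a difference of -0.18 (SE 0.07; limma adjusted p = 0.368). The other 10 measured genes of this list were Mbtps1, Mylip, Lbr, Erg28, Abcg1, Nceh1, Stard3, Osbp, Erlin1 and Ufd1, and their differences lay between -0.16 (Osbp) and 0.16 (Nceh1).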

How the data were processed

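Per the labels, liver RNA of 8 mice, 4 RKO and 4 WT, was hybridised to 1-colour arrays, with 100 ng of total RNA each. The authors deposited log2 values of 35556 probe sets; per the submitters' processing notes, Affymetrix Expression Console, RMA and Partek were used, with versions and roles not given in the sources used here. The log base was read from the values, and RMA equalises arrays and compresses dim differences. Gene names came from the platform annotation, updated by Entrez identifier (21698 of 21789 single-symbol probe sets matched, GRCm38.p6). The model (limma 3.58.1, R 4.3.3; lmFit, eBayes with a variance trend, no filter) ran on 23410 probe sets with at least 1 symbol, and p-values were adjusted over all of them. It was tested on simulated data with independent noise. Those data held no array that stands apart from its group, and no detection rate is taken from them. Differences carry moderated SEs; the number of arrays limits precision.

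The genes and lists were chosen with earlier results of these data known. The 30 genes and the measured regulators are named; values on every array are given for genes without overlap, with an unadjusted p under 0.05 or with an SD over 0.4, and further ones (Npc1, Stard4, Abcg5, Abcg8, Srebf2) were chosen after their values were seen. Alternatives were array weights, no trend, scaling, the probe sets tested, a brightness filter, averaged probe sets, a replicate block and arrays left out. Deviations of same-numbered arrays correlated at 0.00356, -0.0948, -0.0625 and 0.211, and the replicate numbers were not used as pairs. No 2 arrays shared more than 18 identical values, and each counted as a sample.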

Additional observations from a re-analysis of the deposited data

Results flagged for a closer look

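In 74 groups of 4 arrays, the 28 genes and 9 others in both groups, 2 held an array whose gap to its nearest neighbour, as a share of the group's range, was above Dixon's 95% critical value. Chance gives this in about 1 in 20 groups, or 3.7 here. Stard4 read 10.00 on WT 3, and the other WT arrays lay between 9.74 and 9.77. Lipa read 12.67 on RKO 3, and the other RKO arrays lay between 12.41 and 12.45.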

How the results depend on the processing

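The 28 genes were refitted in 18 alternatives, 504 values in all. Of these 471 kept their direction and did not pass, 8 passed and 25 had the other sign; 22 genes kept their sign throughout. The number that passed was 3 with array weights (all genes 3.38%), 4 without both arrays numbered 1 (7.24%), and 0 to 1 with single arrays left out (0% to 4.2%). At an unadjusted p under 0.05, 7 were higher with array weights (all genes 7.63%), 7 without both arrays (7.09%) and 3 to 5 with single arrays left out (2.06% to 6.1%). At that p Abcg5 was lower without RKO 2 (all genes 5.44%) and Pltp without both arrays (12.9%). Groups without overlap, RKO higher, numbered 2 with arrays centred on their medians (all genes 2.6%), 8 without both arrays (9.15%) and 1 to 6 with single arrays left out (2.25% to 5.74%). RKO was lower without overlap in Lcat without RKO 1 (all genes 11.1%) or both arrays (15.6%), and in Abcg5 without RKO 2 (5.24%). The median difference lay from 0.034 to 0.13 over all 28 and from 0.051 to 0.16 over the synthesis genes with single arrays left out. Mvk gave -0.015 with array weights, and Npc2 gave 0.0098 with centred arrays and 0.013 with quantile normalisation repeated. With single arrays left out the sign changed for Mvk (-0.083 to 0.13), Mvd (-0.14 to 0.080), Sqle (-0.010 to 0.25), Nsdhl (-0.060 to 0.17), Npc2 (-0.092 to 0.059), Abca1 (-0.15 to 0.029), Nr1h3 (-0.080 to 0.0013) and Rictor (-0.030 to 0.15). The causes were not tested. With the replicate number as a block 0 members passed (Hmgcs1 0.59, limma adjusted p = 0.317). The arrays limit the precision, and signal over background was not analysed here.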

Other observations

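Abcg5 and Abcg8, neighbouring genes whose products work as 1 transporter, gave differences of opposite sign. The log2 value of Abcg8 minus that of Abcg5 was -0.68, -0.51, -0.53 and -0.50 on RKO arrays 1 to 4, and -0.79, -1.05, -0.93 and -0.84 on WT arrays 1 to 4. It averaged -0.55 ± 0.09 in RKO and -0.90 ± 0.12 in WT livers (SD, n = 4 each), and the groups did not overlap, RKO 1 included. The size of this value depends on the probes, and only its contrast between arrays can be read. The pair was picked after its values were seen, so no test is given.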
